A study of Caenorhabditis elegans and Caenorhabditis briggsae with 12 samples.

Results

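The 8 genes *rsp-1* to *rsp-8* encode SR and SR-related proteins of *C. elegans*, splicing factors named for an arginine and serine rich domain. They were taken by gene name as the whole *rsp* family, and are 8 of the 20213 genes in the *C. elegans* table. Levels come from RNA-seq of larvae at the L2 stage. N2, the standard wild type of the laboratory, gave 3 biological replicates left at 20 °C (non-heat shock, NHS) and 3 placed in a water bath at 34 °C for 30 min (heat shock, HS). The same design in L2 larvae of AF16, a wild-type strain of *C. briggsae*, gave 6 further libraries, of which 1 named SR gene is used. No larva carried a transgene or a mutation named in the labels, and each library pooled whole animals.

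SR proteins bind exonic enhancer sequences in pre-mRNA through RNA recognition motifs, and their RS domain recruits U1 snRNP and the U2AF heterodimer to the splice sites. The RS domain is phosphorylated by SR protein kinases and CLK kinases, which controls entry into the nucleus and activity in splicing. In other animals heat shock is known to inhibit splicing and to change SR protein phosphorylation, which a measurement of RNA levels does not see. Many animal SR genes also produce alternative transcripts with an early stop codon, which are targets of nonsense-mediated decay.

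The annotation (WBcel235, the assembly also called ce11) places 5 of the genes on chromosome II, 2 on III and 1 on IV. *rsp-1* (II:11453362-11455864, plus strand) and *rsp-2* (II:11451441-11452955, minus strand) lie head to head with 406 bases between them. This distance is counted to the start of a non-coding transcript of *rsp-1*, whose coding transcripts start at position 11453974 or later. *rsp-3* is at III:12686182-12687922 on the minus strand and *rsp-4* at II:5387411-5388836 on the minus strand. *rsp-5* is at II:6490165-6491340 on the plus strand, and *snr-3*, which encodes the Sm protein D1, begins 403 bases away on the other strand. *rsp-6* is at IV:7789847-7791229 on the minus strand, *rsp-7* at II:10659206-10662317 and *rsp-8* at III:11826418-11830974, both on the plus strand. The longest coding region of each gene runs from 179 codons in *rsp-6* to 452 codons in *rsp-7*.

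The 8 genes have 25 annotated transcripts, of which 22 are coding and 3 are non-coding. In 10 of the coding transcripts, from *rsp-1*, *rsp-4*, *rsp-5* and *rsp-7*, the coding region ends more than 50 bases before the last exon junction, with distances of 105 to 733 bases. In *rsp-4*, the 196-codon form is joined by a 126-codon form with 152 or 207 bases from the end of its coding region to the last junction. In *rsp-7*, the 452-codon form stands beside a 137-codon form with 366 or 535 bases. *rsp-2* has 1 annotated transcript, and *rsp-6* has 1 coding form of 179 codons and 2 non-coding forms. The values are given per gene, so a shift between a full-length and a shortened form is not visible in them, and which transcripts the authors counted toward each gene is not given in the sources used here.

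**Figure D1:**
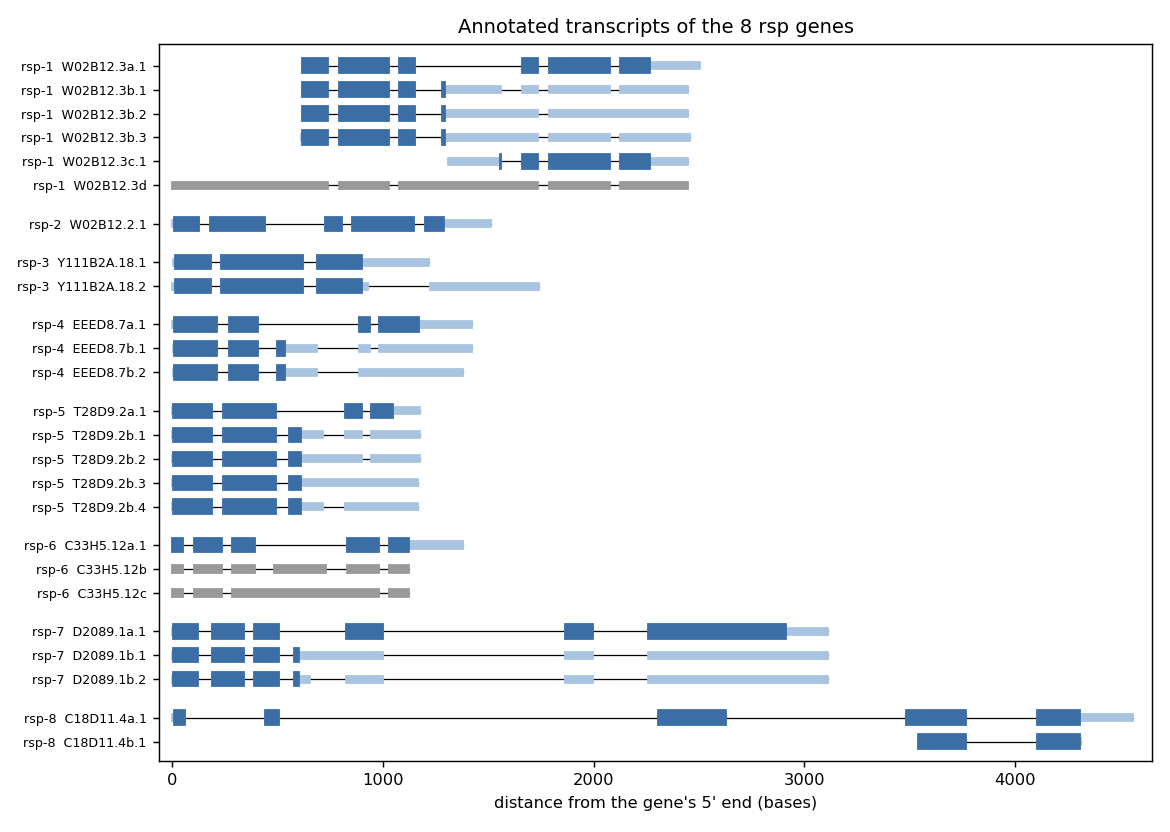
Annotated transcripts of the 8 *rsp* genes drawn to scale against the distance in bases from the gene's 5′ end, with coding exon parts as tall dark blocks, untranslated parts as low pale blocks, non-coding transcripts in grey and introns as lines. In 10 of the shortened forms of *rsp-1*, *rsp-4*, *rsp-5* and *rsp-7* the coding region ends 105 to 733 bases before the last exon junction, while a shortened form of *rsp-1* (170 codons) and one of *rsp-5* (166 codons) have no junction after it.

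All 8 genes were expressed in every library. A value is a normalized count, the number of reads the authors assigned to a gene divided by a factor that sets the libraries on 1 scale. The values of the 8 genes in the 6 libraries ran from 1210.3 to 7008. The coefficient of variation within a group was between 1.40 and 8.66%. To compare levels between genes, the values were divided by the length of the longest coding region. On this scale of normalized counts per kb of coding sequence, *rsp-3* was highest in NHS larvae at 8472 ± 605 (SD, n = 3). *rsp-6* followed at 6519 ± 299. *rsp-2* and *rsp-1* came next at 4226 ± 94.6 and 4079 ± 181, and their replicates overlapped. *rsp-4* was at 3487 ± 155, *rsp-5* at 2144 ± 138, *rsp-7* at 1848 ± 64.6 and *rsp-8* lowest at 1404 ± 88.6, and no replicates of neighbours in this stretch of the order overlapped. In HS larvae the per kb levels kept *rsp-3* first at 8715 ± 445 and *rsp-6* next at 7687 ± 248, while *rsp-1* and *rsp-2* overlapped and *rsp-5* at 2277 ± 149 and *rsp-7* at 2204 ± 83.5 overlapped too. The values were also divided by the length of the transcript with the longest coding region, the longer one at a tie. The NHS order was then the same. In HS larvae *rsp-6* at 5173 ± 167 stood above *rsp-3* at 5049 ± 258 normalized counts per kb (SD, n = 3 each). *rsp-7* at 1921 ± 72.8 stood above *rsp-5* at 1887 ± 123. In both pairs the ranges of mean ± SD overlapped. For *rsp-3* the length was 1336 bases, while its other transcript, also of 258 codons, has 1103. The order of *rsp-3* and *rsp-6* in HS larvae depends on that choice.

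The heat shock itself was large in these libraries. *hsp-70*, which encodes an inducible chaperone, rose from 929 ± 386 to 97382 ± 31977 normalized counts (SD, n = 3 each), a log2 fold change of 6.76 with an adjusted p of 0.000609 in limma. The library sums of normalized counts were between 32228400 and 32534000 in NHS and between 39420300 and 43048800 in HS, and the 10 most abundant genes held 7.40 to 7.75% and 14.5 to 16.22% of them. Markers of intestine, body wall muscle, pharynx, neurons, hypodermis and germline were above 0 in all 6 libraries, and the summed level of 6 adult markers was 17.1 to 27.2 in NHS and 61.9 to 116 in HS, with *msp-3* at 0. The summed muscle markers were at 479073 to 529081 in NHS and 600402 to 658560 in HS, and the summed neuron markers at 9777 to 10674 and 8332 to 8567. Those of hypodermis were at 6836 to 11941 and 4047 to 7390, and of germline at 6240 to 6498 and 5461 to 5945. Intestine markers were at 81971 to 88073 and 91243 to 107265, and pharynx markers at 122454 to 126467 and 140194 to 158913. All these marker sums are on the authors' scale, on which the library sums were also higher in HS. Their part in the *rsp* values was not tested. In whole larvae a change in the number of cells of a type and a change in RNA per cell cannot be told apart.

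Against this response the SR genes moved little. None of the 8 passed the thresholds of the study, more than 2-fold with an adjusted p under 0.01, which 13% of the 17551 tested genes passed, 10.2% up and 2.77% down. At an adjusted p under 0.01 with no minimum fold change, *rsp-6* and *rsp-7* rose and no member fell with the authors' normalization, although all 8 values were negative when the library sums were set equal. With the authors' normalization 15.8% of all genes tested were higher and 12.9% lower. Among the 2508 genes with a mean level in the range of the members these shares were 12.8% and 19.1%. A count of 2 among 8 genes is close to that background. The other 6 members also had an unadjusted p above 0.05. All 8 fold changes were under 1.2 in size, a limit chosen after the values were seen, as were 40.2% of all genes and 63.7% of those in the members' range of levels. The median log2 fold change of the 8 genes was 0.08, beside 0.04 for all genes, whose quartiles were -0.29 and 0.47.

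*rsp-6* encodes the homolog of mammalian SRp20, the smallest of the classical SR proteins. Its normalized counts were 3315, 3591 and 3596 in NHS replicates 1 to 3 and 4059, 4281 and 4043 in HS replicates 1 to 3. Every HS library was above every NHS library. The mean went from 3501 ± 161 to 4128 ± 133 (SD, n = 3 each), a log2 fold change of 0.24 ± 0.06 (SE), or 18.0% higher, with a 95% interval of 1.08-fold to 1.29-fold and an adjusted p of 0.00746 in limma.

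*rsp-7* encodes an SR-related protein of the mammalian SRp54 type. It had 2414, 2589 and 2515 normalized counts in NHS and 2938, 3119 and 2911 in HS replicates 1 to 3. Here too the groups did not overlap, as in 30.6% of all genes tested in this direction and 25.5% in the other. The log2 fold change was 0.25 ± 0.06 (SE), or 19.3% higher, with a 95% interval of 1.09-fold to 1.30-fold and an adjusted p of 0.00552 in limma. Within the same-numbered pairs of libraries the log2 ratio of HS over NHS was 0.29, 0.25 and 0.17 for *rsp-6* and 0.28, 0.27 and 0.21 for *rsp-7*. Both calls were lost when most single libraries were left out, while the log2 fold changes stayed at 0.1995 to 0.2581 for *rsp-6* and 0.223 to 0.2777 for *rsp-7*. Over all genes, the calls in these fits also moved, from 2765 higher to between 1661 and 2752. The lower calls went from 2266 to between 1289 and 2493. With 1 library left out the adjusted p ran from 0.00937 to 0.0303 for *rsp-6* and from 0.0062 to 0.024 for *rsp-7*, past 0.01 without NHS replicate 1 (0.0303 and 0.024), NHS replicate 2 (0.0169 and 0.012), NHS replicate 3 (0.0178 and 0.0202), HS replicate 1 (0.0224 and 0.0179) or HS replicate 2 (0.0294 and 0.0223), and under it only without HS replicate 3.

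The genes *rsp-3*, *rsp-4* and *rsp-5* gave values that overlapped between the groups. *rsp-3* encodes the homolog of SF2/ASF (SRSF1), whose depletion by RNAi is lethal to embryos. It was measured at 6031, 6712 and 6928 normalized counts in NHS and at 6355, 7008 and 6873 in HS. On the log2 scale HS exceeded NHS by 0.04 ± 0.07 (SE), with an adjusted p of 0.633 in limma. *rsp-4* encodes the homolog of SC35 (SRSF2). It had 1946, 2099 and 2107 normalized counts in NHS and 2091, 2079.8 and 2245 in HS, a log2 difference of 0.06 ± 0.06 (SE) with an adjusted p of 0.446 in limma. *rsp-5*, which encodes a further SC35-like protein, had 1246, 1417 and 1352 normalized counts in NHS and 1383, 1526 and 1352 in HS, a log2 difference of 0.09 ± 0.07 (SE) with an adjusted p of 0.366 in limma. For each of these genes the lowest library of the 6 was NHS replicate 1.

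The head-to-head pair *rsp-1* and *rsp-2*, which encode CeSRp75 and CeSRp40, overlapped between the groups as well. *rsp-1* had 3890.0, 3624 and 3939.8 normalized counts in NHS and 3824, 4192 and 3979 in HS. *rsp-2* had 3611, 3606 and 3470.4 in NHS and 3549.7, 3617 and 3520.4 in HS. The NHS and HS means of *rsp-2* were 3562 ± 79.7 and 3563 ± 49.7 (SD, n = 3 each), and its 95% interval ran from 0.925-fold to 1.08-fold. For *rsp-1* the log2 difference was 0.07 ± 0.06 (SE) with an adjusted p of 0.385 in limma, with an interval of 0.956-fold to 1.15-fold. The log2 ratio of *rsp-1* to *rsp-2* was 0.10 ± 0.09 in NHS and 0.17 ± 0.05 in HS larvae (SD, n = 3 each), and the groups overlapped.

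*rsp-8* encodes a protein of the Tra2 type, related to a regulator of sex-specific splicing in flies. It had 1210.3, 1369 and 1325 normalized counts in NHS and 1409, 1554 and 1308 in HS. Its coefficient of variation was the largest of the 8 in HS, at 8.66%, while in NHS it was 6.31%, below those of *rsp-3* (7.14%) and *rsp-5* (6.46%). HS replicate 3 fell below NHS replicates 2 and 3, and the log2 difference was 0.13 ± 0.08 (SE) with an adjusted p of 0.218 in limma. Over all 8 genes the 95% intervals stayed within 0.925-fold and 1.30-fold. The SE of the log2 fold change was 0.05 to 0.08 for the members, and a 2-fold change lay outside every interval. The median SE was 0.15 for all genes tested, down to a mean of 2, and was not taken within the members' range of levels.

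**Figure D2:**
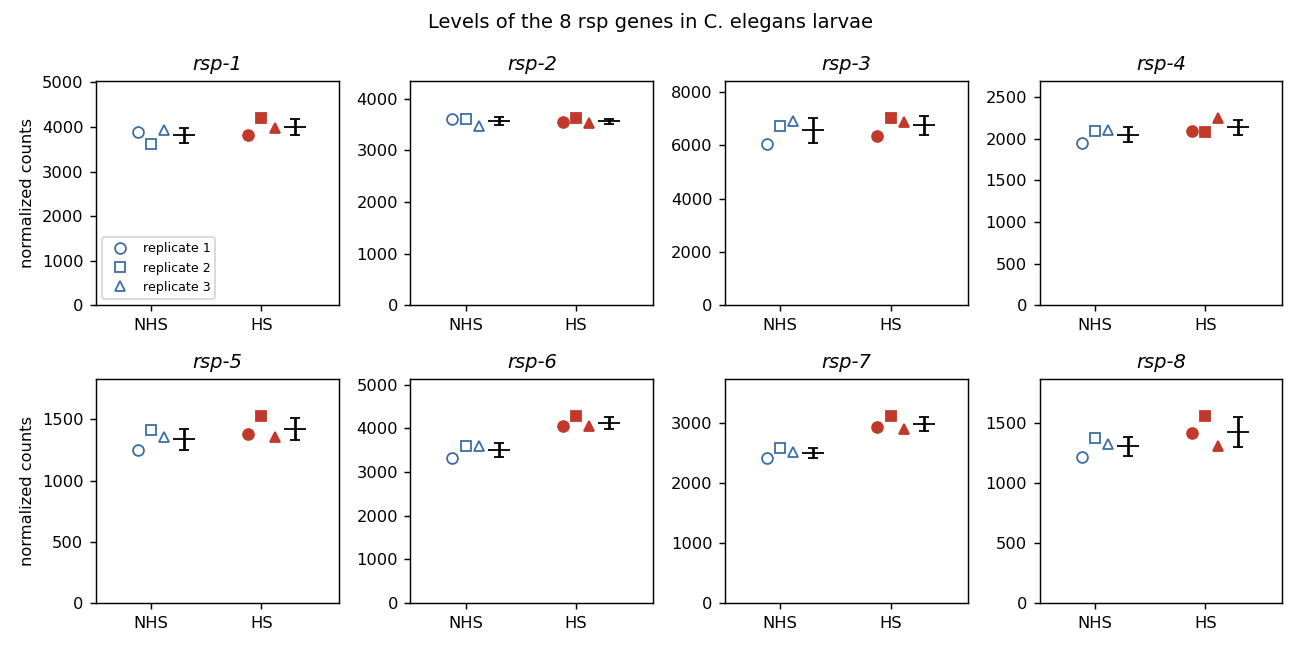
Normalized counts of the 8 *rsp* genes in each library of N2 larvae, NHS in open blue and HS in filled red symbols, 1 symbol shape per replicate, with the mean and SD of each group in black and each vertical axis starting at 0. The groups of *rsp-6* (3315 to 3596 against 4043 to 4281) and *rsp-7* (2414 to 2589 against 2911 to 3119) do not overlap on the authors' scale, while those of the other 6 genes do.

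NHS replicate 1 was the lowest of the 6 libraries in 6 of the 8 genes, and HS replicate 2 was the highest in 7 of the 8. The same counts were not taken over all genes, so this is not shown to be particular to the members. The summed level of the 8 genes was 23663, 25008 and 25234 normalized counts in NHS and 25609, 27378 and 26233 in HS. As a share of the library sum it was 0.0760% ± 0.00227 in NHS and 0.0637% ± 0.00283 in HS (SD, n = 3 each), lower in every HS library. The direction of the family against the library therefore depends on how the libraries are scaled. When the library sums were set equal, the median log2 fold change of all genes moved from 0.04 to -0.32 and all 8 *rsp* genes turned negative, from -0.36 in *rsp-2* to -0.10 in *rsp-7*. On that scale *rsp-1* to *rsp-5* were called lower, as were 37.4% of all genes tested, and *rsp-6* and *rsp-7* were not called (adjusted p = 0.125 and 0.182 in limma). Over all genes the calls were then 1667 higher and 6544 lower, beside 2765 and 2266 on the authors' scale. Measured from the median of all genes, *rsp-6* lay 0.20 and *rsp-7* 0.22 higher on the log2 scale with the authors' normalization, and 0.20 and 0.21 higher with equal sums. These distances can hardly differ, because a scaling shifts abundant genes by nearly the same amount.

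**Figure D3:**
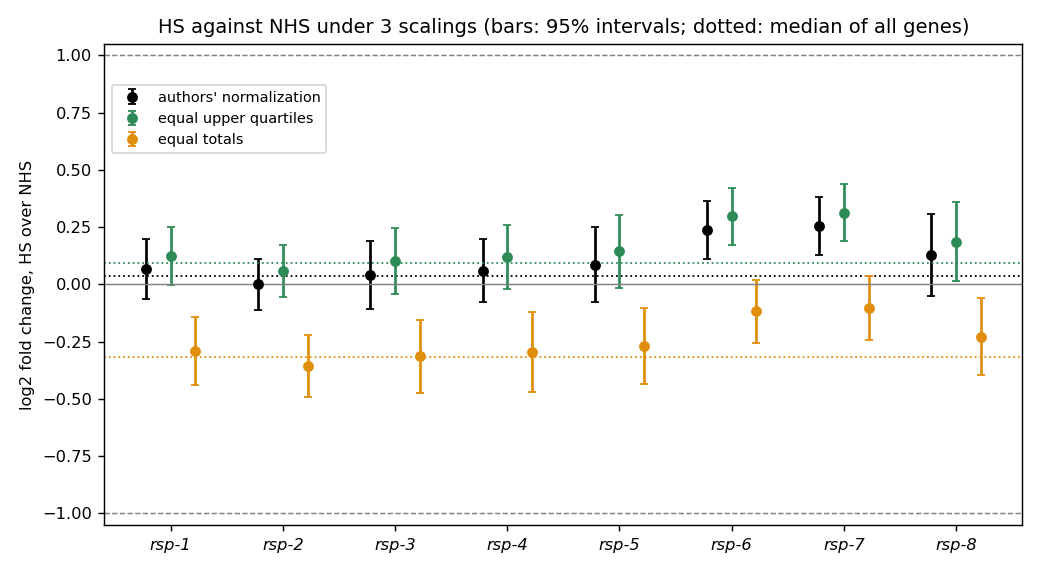
Log2 fold change of HS over NHS for each *rsp* gene with the authors' normalization (black), equal upper quartiles (green) and equal library sums (orange), with 95% intervals as bars, the median of all genes under each scaling as a dotted line of the same colour and 2-fold changes as dashed lines. A scaling shifts abundant genes by nearly the same amount, so the order of the members and their distance from the median can hardly change with it. *rsp-6* and *rsp-7* lie highest and about 0.20 above the median of all genes.

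Ratios between members do not depend on the scaling of a library. *rsp-6* made up 14.0, 14.4 and 14.2% of the summed 8 genes in NHS and 15.9, 15.6 and 15.4% in HS replicates 1 to 3. *rsp-7* made up 10.2, 10.4 and 9.97% in NHS and 11.5, 11.4 and 11.1% in HS. Neither gene's NHS and HS shares overlapped, while those of the other 6 did. *rsp-3* held 26.6% ± 1.01 in NHS and 25.5% ± 0.694 in HS (SD, n = 3 each), and *rsp-2* held 14.5% ± 0.754 and 13.5% ± 0.331. Of the 28 pairs of members, the log2 ratio did not overlap between NHS and HS in 12, and these were the 12 pairs that set *rsp-6* or *rsp-7* against one of the other members. Among the 3143778 pairs of genes with a mean level in the range of the members, 59.7% did not overlap in one direction or the other, so a count of 12 among 28 is not high. In those pairs the ratio moved by 0.11 to 0.25 on the log2 scale toward *rsp-6* or *rsp-7*. The ratio of *rsp-6* to *rsp-7* itself was 0.48 ± 0.03 in NHS and 0.47 ± 0.01 in HS on the log2 scale (SD, n = 3 each). With 3 libraries against 3, an exact two-sided permutation test of a ratio cannot give a p below 0.1, and the pairs share genes.

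**Figure D4:**
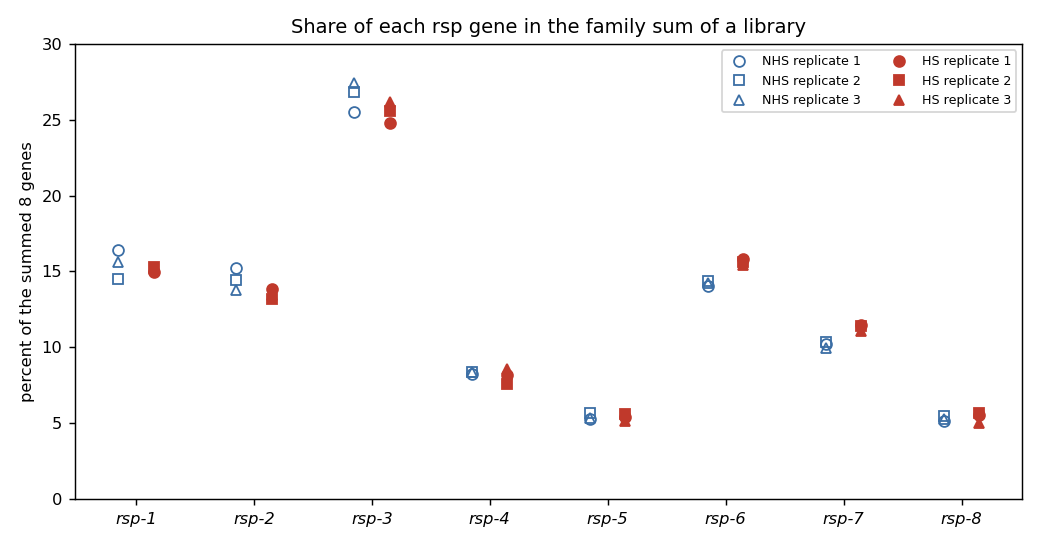
Percent of the summed normalized counts of the 8 *rsp* genes held by each gene in each N2 library, NHS in open blue and HS in filled red symbols with 1 shape per replicate. *rsp-6* went from between 14.0 and 14.4% to between 15.4 and 15.9%, and *rsp-7* from between 9.97 and 10.4% to between 11.1 and 11.5%.

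The genes around the members were read from the same fit. Apart from *rsp-1* and *rsp-2* themselves, the nearest genes beyond the ends of the members number 14, of which 8 had a positive and 6 a negative log2 fold change, with a median of 0.06. At an adjusted p under 0.01 none was called higher and 3 were called lower, where 15.8% of all genes were higher and 12.9% lower. The 3 lie beside *rsp-6* and *rsp-7*. Genes that overlap a member are not among the 14, and of these *W02B12.1*, which overlaps *rsp-2*, was also called lower (log2 fold change -0.45, adjusted p = 0.00229 in limma). *snu-13*, which encodes a U4 snRNP protein and lies 579 bases from *rsp-7* on the other strand, fell by 0.48 on the log2 scale (SE 0.07, adjusted p = 0.000598 in limma). *D2089.3*, 1215 bases beyond the other end of *rsp-7*, fell by 1.51 (SE 0.24, adjusted p = 0.000963). *imp-3*, 233 bases from *rsp-6* on the same strand, fell by 0.62 (SE 0.10, adjusted p = 0.000932), while *C33H5.13* at the other end of *rsp-6* differed by 0.24 (SE 0.11, adjusted p = 0.108). Among the neighbours that were not called, *W02B12.13* near *rsp-2* differed by 1.183 (adjusted p = 0.0199), *C18D11.3* near *rsp-8* by 0.25 (adjusted p = 0.0105) and *snr-3*, the divergent neighbour of *rsp-5*, by 0.19 (adjusted p = 0.0266). The named neighbours were picked after their values were seen.

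Annotated genes overlap some of the members, and the shared exon bases were few. On the opposite strand, a pseudogene shares 59 exon bases with *rsp-1*, *W02B12.1* shares 5 with *rsp-2*, *elpc-2* shares 44 with *rsp-3* and *D2089.8* shares 73 with *rsp-7*. Mean normalized counts of *W02B12.1* were 1403 in NHS and 1028 in HS, a log2 fold change of -0.45 (adjusted p = 0.00229 in limma). No other overlapping gene with values was called at an adjusted p under 0.01. On the same strand, *ndx-6* shares 8 exon bases with *rsp-4*. Mean normalized counts of *ndx-6* were 448 in NHS and 429 in HS, beside 2051 and 2139 for *rsp-4*. *D2089.8* was at 39.4 and 34.4, beside 2506 and 2989 for *rsp-7*.

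A pattern over the 6 libraries was compared between genes by the root mean square difference of log2 values, each centred on the gene's own mean, among the 10302 genes whose mean reached 100. The genes nearest to *rsp-6* were *C43E11.9* (0.01 on the log2 scale) and *rpb-7*, which encodes an RNA polymerase II subunit (0.02). The genes nearest to *rsp-7* were *C43E11.9* and *rsp-6*, both at 0.02. For *rsp-1* they were a gene listed as WBGene00302968 and *rbm-22*, for *rsp-2* *rme-8* and *dhc-1*, for *rsp-3* *pfd-3* and *Y82E9BR.14*, for *rsp-4* *C46F11.4* and *sql-1*, for *rsp-5* *sinh-1* and *unc-132*, and for *rsp-8* *F36A2.2* and *hsp-17*. Such likeness was common, since 185 genes lay within 0.05 of *rsp-6* and 175 within 0.05 of *rsp-7*, and the libraries are shared by all genes.

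The rest of the splicing pathway was described with 7 lists of 79 genes tested. No gene in these lists passed the 2-fold threshold with the authors' normalization. At an adjusted p under 0.01 with no minimum fold change, 4 rose, 9 fell and 66 were not called, with a median log2 fold change of -0.02. As shares these are 5.06% higher and 11.4% lower, beside 15.8% and 12.9% of all genes tested. Among 6 SR kinases and SR-related proteins none was called. *madd-3*, a CLK family kinase, differed by -0.11 ± 0.06 on the log2 scale (SE), with an adjusted p of 0.157 in limma. *rnp-5*, the homolog of RNPS1, differed by 0.13 ± 0.06 (adjusted p = 0.0835), and *rsr-1*, the homolog of the coactivator SRm160, by 0.16 ± 0.08 (adjusted p = 0.147).

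The splice site recognition list holds genes of U1 and U2 snRNP proteins, U2AF and SF1, of which SR proteins recruit U1 snRNP and U2AF. In this list 1 of the 8 genes rose and 1 fell. *uaf-2*, the small U2AF subunit that reads the end of the intron, had 1567, 1551 and 1559 normalized counts in NHS and 1897, 2090.3 and 1908 in HS. It rose by 0.33 ± 0.06 on the log2 scale (SE), with an adjusted p of 0.00189 in limma. The large subunit gene *uaf-1* differed by 0.17 ± 0.05 (adjusted p = 0.0208) and was not called. *rnp-2*, a U1 snRNP protein, fell by 0.42 on the log2 scale (SE 0.10, adjusted p = 0.00855).

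None of the 7 Sm ring genes was called, and the 2 with the smallest adjusted p were *snr-2* (log2 fold change 0.18, adjusted p = 0.0241 in limma) and *snr-3*. Of the 8 LSm genes only *lsm-1* passed, which serves in cytoplasmic mRNA decapping rather than in splicing. It fell by 0.60 on the log2 scale (SE 0.14, adjusted p = 0.00691). In the spliceosome core, 1 of 22 genes rose and 2 fell. *prp-8*, at the heart of the spliceosome, fell by 0.26 (SE 0.05, adjusted p = 0.00174) and *prp-3*, a U4/U6 snRNP protein, rose by 0.24 ± 0.06 (SE, adjusted p = 0.00982). *snu-13*, given above as a neighbour of *rsp-7*, is the other gene that fell.

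Among the 19 tested hnRNP and other regulators of alternative splicing, 5 fell and none rose, with a median log2 fold change of -0.06. The 5 are 26.3% of the list, beside 12.9% of all genes and 19.1% of those in the *rsp* genes' range of levels. *fox-1* and *exc-7* lie below that range, so the last share is not matched to this list in level. *fox-1*, an RBFOX family regulator, had 705, 652 and 649 normalized counts in NHS and 322, 366 and 376 in HS, and fell by 0.92 on the log2 scale (SE 0.09, adjusted p = 6.27e-05 in limma). *exc-7*, of the ELAV family, fell by 0.74 (SE 0.08, adjusted p = 0.000101). *sym-2*, of the hnRNP F/H family, fell by 0.73 (SE 0.08, adjusted p = 9.84e-05). *ptb-1* and *etr-1*, homologs of polypyrimidine tract binding and CELF proteins, fell by 0.53 and 0.40 (adjusted p = 0.000426 and 0.0044). Of 5 neuron markers 3 were also lower in HS, and their part in these values was not tested.

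Of the 9 genes of the exon junction complex and nonsense-mediated decay, which acts on transcripts with early stops, 2 rose and none fell, with a median log2 fold change of 0.15. The 2 are 22.2% of the list, beside 15.8% of all genes tested. *smg-5* had 271, 316 and 268 normalized counts in NHS and 470.0, 475 and 457 in HS, a rise of 0.71 ± 0.09 on the log2 scale (SE) with an adjusted p of 0.000331 in limma. *smg-4*, the homolog of UPF3, rose by 0.36 ± 0.07 (adjusted p = 0.00345). *smg-2*, the homolog of the helicase UPF1, differed by 0.20 ± 0.06 (adjusted p = 0.0192) and was not called, though it was with the replicate number as a block (adjusted p = 0.00941).

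These directions depend on the scaling too. With equal library sums, the median log2 fold changes of all 7 lists were negative, from -0.20 in the exon junction and decay list to -0.41 in the hnRNP list, beside -0.32 for all genes, and 17 of 19 hnRNP genes and 19 of 22 spliceosome core genes were called lower. *uaf-2* and *prp-3* turned to -0.02 and -0.12, *smg-4* stood at 0.01, and *smg-5* was still higher by 0.36 on the log2 scale (adjusted p = 0.00952 in limma). *fox-1*, *exc-7* and *sym-2* then passed the 2-fold threshold at -1.27, -1.095 and -1.09. With equal upper quartiles the hnRNP median was 0.00, and *fox-1*, *exc-7*, *sym-2* and *ptb-1* were still called lower.

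**Figure D5:**
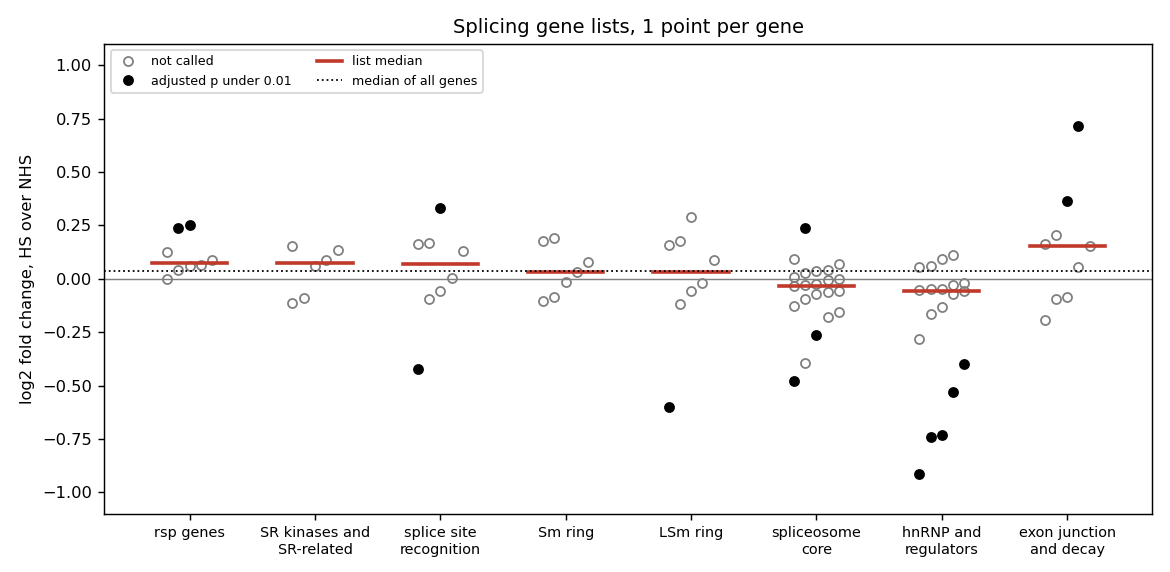
Log2 fold change of HS over NHS for each tested gene of the *rsp* family and of 7 splicing gene lists, with genes at an adjusted p under 0.01 as filled points, list medians as red bars and the median of all genes (0.04) as a dotted line. The *rsp* genes lie between 0.00 and 0.25, and the points farthest from 0 belong to *fox-1* (-0.92) and *smg-5* (0.71), all with the authors' normalization.

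In *C. briggsae* 1 gene of the family, *Cbr-rsp-4*, carried a name in the tables used, and the other members were not analysed here. It had 1746, 1812 and 1701 normalized counts in NHS and 1919, 1809.6 and 1918 in HS. HS replicate 2 lay below NHS replicate 2, so the groups overlapped. The log2 fold change was 0.10 ± 0.06 (SE), with a 95% interval of -0.03 to 0.24 and an adjusted p of 0.206 in limma, where 8.13% of the 18470 tested genes were called higher and 6.96% lower at any fold change. The response of *rsp-4* in *C. briggsae* minus that in *C. elegans* was 0.04 on the log2 scale, with a 95% interval of -0.14 to 0.22 (adjusted p = 0.715 in limma over 1183 ortholog pairs, of which 24.9% passed 0.01). When the library sums were set equal, *Cbr-rsp-4* turned to -0.28 and was called lower (adjusted p = 0.00335). The libraries of each species were normalized apart.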

How the data were processed

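Total RNA was measured in 12 libraries of whole L2 larvae. The values are signal, gene counts that the authors estimated with Salmon 0.13.1 on mRNA transcripts and deposited after DESeq2 1.18.1 normalization within a species. They are not whole reads, so count tests were not run. The library sums given are sums of normalized counts and do not measure sequencing depth. Values were taken as log2(normalized count + 1). Genes with a mean of at least 2 were fitted with limma 3.58.1 (trend and robust variances, R 4.3.3), two-sided, with Benjamini-Hochberg adjustment over all genes. Fold changes are on this scale.

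Same-numbered NHS and HS libraries deviated together weakly in *C. elegans* (r = 0.18, 0.16 and 0.29 across genes) and more weakly in *C. briggsae* (0.02, 0.12 and 0.10). In both species these values lay above those of all differently numbered libraries. Correlations this weak do not settle whether the numbers pair the samples. The main fit used the condition alone, and a replicate block was an alternative. Ensembl release 115 (WBcel235) gave positions and transcripts, and names matched 19868 of 20213 genes. The authors' annotation release was not given in the sources used here. 1 *C. briggsae* column spells its strain with 1 other digit and was taken as NHS replicate 3. Protein and promoter sequences were not used here.

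The members and lists were chosen with earlier results of these data known. Named are all members, up to 3 genes per list by adjusted p, 3 heat shock genes (1 is given) and the 2 nearest patterns per member. Neighbours, *W02B12.1*, *snu-23*, *ptb-1* and *etr-1* were added after their values were seen. *tiar-3* was not analysed here. Alternatives were other pseudocounts, filters, scalings, variance models, a replicate block, an adjusted p under 0.05 and leaving out each library.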

Additional observations from a re-analysis of the deposited data

How the results depend on the processing

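No *rsp* gene passed the 2-fold threshold in any alternative, pseudocounts of 0.5 and 5, no filter and a mean of at least 10 included. The calls of *rsp-6* and *rsp-7* held with the replicate block (adjusted p = 0.00423 and 0.00319 in limma), which changed no other call among the members, and with equal upper quartiles. They were lost without trend and robust variances (0.048 and 0.0368), where 0 members were called. With 1 library left out, 0 to 2 members were called.

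With equal sums the log2 fold changes reversed, to -0.29 for *rsp-1*, -0.36 for *rsp-2*, -0.31 for *rsp-3*, -0.30 for *rsp-4*, -0.27 for *rsp-5*, -0.12 for *rsp-6*, -0.10 for *rsp-7*, -0.23 for *rsp-8* and -0.28 for *Cbr-rsp-4* (adjusted p = 0.00335), with 0 members called higher and 5 lower. The species difference of *rsp-4* reversed to -0.019 with equal upper quartiles. With 1 library left out *rsp-2* ranged from -0.0186 (without NHS replicate 3, and also below 0 without HS replicate 2) to 0.01 and *rsp-3* from -0.017 (without NHS replicate 1) to 0.0844.

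Of the splicing lists, 4 genes higher and 9 lower became 1 and 56 with equal sums and 1 and 4 without trend and robust variances. The replicate block gave 5 and 10, adding *smg-2* (adjusted p = 0.00941) and *snu-23* (0.00872). With equal upper quartiles 9 were higher, and at an adjusted p under 0.05 there were 11. With 1 library left out 2 to 3 were higher and 5 to 10 lower. Over all genes, 2765 calls higher and 2266 lower became 1687 and 1049 without trend and robust variances, and 3193 and 2791 with the replicate block. Counting depth per library was not known.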
